A study of Mus musculus with 18 samples.

Results

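PaPE-1 was compared with vehicle in the livers of ob/ob mice with 6 RNA-seq libraries, 3 per treatment, of the 18 libraries of the study. The members are all libraries that the labels give as ob/ob liver with PaPE-1 (L5, L6 and L16) or with vehicle (L3, L8 and L13). The labels set which libraries belong, but this comparison was chosen with earlier results of these data known. The study asked how estrogens act on obese liver after ovariectomy, in ob/ob mice and in wild-type mice made obese by a diet rich in fat and cholesterol (DIO). All mice of the 6 libraries were ovariectomized C57BL/6 females with the ob mutation, which removes leptin, and ate a normal diet. Beginning 1 week after ovariectomy, an osmotic minipump delivered vehicle, or a daily PaPE-1 dose of 300 µg per kg, for 6 weeks. The third treatment, 17β-estradiol (E2) at 5 µg per kg per day, gave 3 further ob/ob libraries, which entered the fit to estimate the spread and are otherwise only placed beside the PaPE-1 values. The age of the mice is not given in the sources used here. The sample records say that 2 samples per group were sequenced, but 3 libraries per group are listed and were used. Whole liver was sequenced, and without a count of cells, fewer cells of a type and less RNA per cell cannot be told apart.

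PaPE-1 is a pathway preferential estrogen, a ligand that binds estrogen receptor α less tightly than E2 does and favours its signalling outside the nucleus over its direct action on genes. Estrogen receptor α is the main estrogen receptor of liver, where loss of ovarian hormones is known to favour lipid storage. Hepatocytes of adult liver rarely divide, and the transcripts of mitosis are made only in cells that pass through the cell cycle, so their level in whole liver is low. Many of these genes are held silent outside the cycle by the DREAM complex and are switched on late in the cycle by MuvB, B-Myb and FoxM1, through a promoter letter pattern called the cell cycle genes homology region (CHR), often with CCAAT boxes bound by NF-Y beside it.

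Total counts lay between 10470665 (L8) and 17021370 (L16) in the 6 libraries. Hepatocyte genes were the same order of level in both groups, with albumin (Alb) at 76879 ± 11145 CPM (SD, n = 3) with vehicle and 75453 ± 10060.5 CPM (SD, n = 3) with PaPE-1. Of 20 markers of pancreatic acinar cells, which lie near the liver, 1 had enough counts to be tested. Levels in CPM are counts scaled to a common library size after TMM normalization, and log2 fold changes are PaPE-1 over vehicle. The 6 libraries did not form 2 even groups. Among the vehicle libraries L8 stood apart in mitotic and bile duct genes, and among the PaPE-1 libraries L5 and L6 stood apart from L16 in erythroid genes and hepcidin, so results are given with and without L8 and L16.

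Of 13433 genes that passed the count filter, 0 passed an adjusted p of 0.05 in edgeR's quasi-likelihood test, 0.0% of those tested, and the smallest adjusted p was 0.999998. At an unadjusted p under 0.05 there were 356 genes (2.65%), of which 134 were higher (0.998%) and 222 lower (1.65%) with PaPE-1. By chance alone 672 of the 13433 genes would be expected at this threshold, more than the 356 found. At this p, a change of over 2-fold was seen upward in 27 genes (0.201%) and downward in 63 (0.469%). Of the 63 lower genes 25 were on a list of 68 mitosis genes. In 43 of the 63 the vehicle library L8 was the highest of the 6, and the share over all genes is not given here. These counts moved with single libraries. The 27 became 51 without L3, 51 without L8, 41 without L13, 22 without L5, 42 without L6 and 70 without L16. The 63 became 48 without L8, 93 without L3, 123 without L13, 81 without L5, 64 without L6 and 115 without L16. Without L16 6 genes passed an adjusted p of 0.05 in edgeR.

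**Figure D1:**
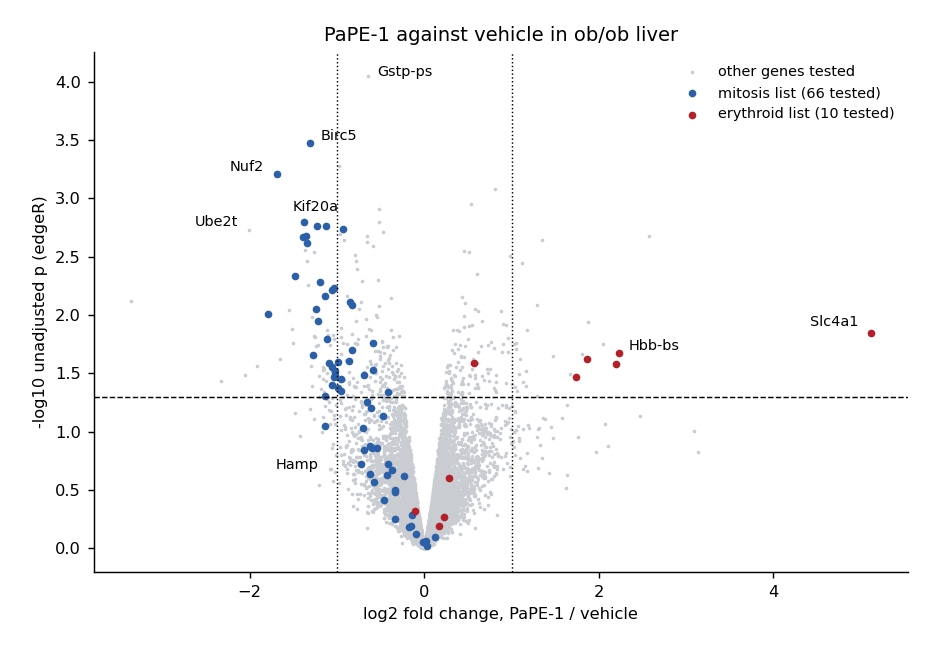
Each point is 1 of 13433 genes, with the log2 fold change of PaPE-1 over vehicle on the x axis and -log10 of the unadjusted edgeR p on the y axis. The dashed line marks p of 0.05 and the dotted lines a 2-fold change; 63 of the 66 mitosis genes tested (blue) lie left of 0, and the erythroid genes (red) reach a log2 fold change of 5.12.

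The mitosis genes were the group that stood lowest with PaPE-1. Of 68 on the list 66 were tested, 63 had a log2 fold change below 0, and 38 were lower at an unadjusted p under 0.05 in edgeR against 0 higher, beside 1.65% of all genes tested. The median log2 fold change of the list was -0.84, beside -0.00112 for all genes tested, of which 50.3% were below 0. In 21 members all 3 PaPE-1 libraries lay below all 3 vehicle libraries, beside 2.9% of all genes in this direction and 2.88% in the other. No member passed the adjusted threshold. The list covers kinases, cyclins, motors and checkpoint proteins of cell division, and the members not tested, Cdc25c and Mybl2, had too few counts.

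The promoters of the mitosis genes share letters, as is known of genes of this kind. The letters are the same under any treatment, so they hold no information on PaPE-1. RefSeq promoter windows, taken from the table for GRCm38.p6 and running from 250 bases before the start of the gene to 50 after it, were found for 56 of the 68 genes. A CHR, searched as TTTGAA or TTTAAA on both strands, stood in 43 of these 56 (76.8%), beside 27.8% of all 27025 promoters and 19.9% of those of the genes tested. CCAAT, on both strands, stood in 41 of the 56 (73.2%), beside 37.9% of all promoters, and in 2 or more places in 26 (46.4%), beside 12.2%. The patterns may overlap each other by a base and each place was counted. The 250 bases before the start are printed for 6 mitosis genes whose levels are described next, to show where the letters lie, with CHR and CCAAT of either strand in capitals.
Plk1: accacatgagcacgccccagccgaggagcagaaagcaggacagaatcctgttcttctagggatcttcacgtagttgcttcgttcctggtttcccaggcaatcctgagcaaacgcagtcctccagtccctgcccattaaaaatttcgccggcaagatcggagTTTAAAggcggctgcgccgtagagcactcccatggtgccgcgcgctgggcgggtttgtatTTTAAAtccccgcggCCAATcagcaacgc
Cdc20: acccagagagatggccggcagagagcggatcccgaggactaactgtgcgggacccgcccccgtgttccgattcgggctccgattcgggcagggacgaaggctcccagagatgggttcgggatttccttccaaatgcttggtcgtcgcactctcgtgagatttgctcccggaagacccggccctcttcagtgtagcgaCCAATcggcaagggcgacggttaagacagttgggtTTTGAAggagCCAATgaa
Ccnb1: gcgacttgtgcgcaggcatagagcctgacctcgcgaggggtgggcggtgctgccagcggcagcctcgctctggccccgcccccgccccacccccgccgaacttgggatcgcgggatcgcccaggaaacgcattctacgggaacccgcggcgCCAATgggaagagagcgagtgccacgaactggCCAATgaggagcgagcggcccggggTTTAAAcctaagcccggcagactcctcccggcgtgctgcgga
Ect2: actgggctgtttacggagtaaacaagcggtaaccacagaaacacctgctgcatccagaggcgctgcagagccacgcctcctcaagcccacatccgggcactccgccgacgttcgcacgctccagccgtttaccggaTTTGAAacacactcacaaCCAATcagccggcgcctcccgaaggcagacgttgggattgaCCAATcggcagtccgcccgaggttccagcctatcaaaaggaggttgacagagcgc
Ckap2l: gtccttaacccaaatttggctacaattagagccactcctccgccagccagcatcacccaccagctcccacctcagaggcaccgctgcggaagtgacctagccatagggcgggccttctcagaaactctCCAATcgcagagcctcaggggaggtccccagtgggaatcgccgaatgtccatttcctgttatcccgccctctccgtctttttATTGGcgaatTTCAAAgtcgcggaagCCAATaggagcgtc
Birc5: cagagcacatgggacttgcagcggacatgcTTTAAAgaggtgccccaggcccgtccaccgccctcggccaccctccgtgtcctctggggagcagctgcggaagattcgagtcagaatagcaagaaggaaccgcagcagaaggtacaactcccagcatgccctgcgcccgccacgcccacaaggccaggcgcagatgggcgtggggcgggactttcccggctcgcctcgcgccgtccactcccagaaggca
On GRCm38.p6 these stretches are chr7:122159185-122159434 (plus strand), chr4:118437344-118437593 (minus), chr13:100786487-100786736 (minus), chr3:27153879-27154128 (minus), chr2:129297213-129297462 (minus) and chr11:117848987-117849236 (plus). In Cdc20 the CHR begins 18 bases before the start and lies between CCAAT boxes that begin 53 and 8 bases before it. Ccnb1 has CCAAT at 99 and 67 bases and the CHR at 42 bases before the start. Birc5 has only a TTTAAA at 220 bases before the start and no CCAAT in this stretch. A match of letters is a description of the sequence and not a site shown to be bound.

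Birc5 (chr11:117740063-117746569 on GRCm39, the build of the counts) encodes survivin, a subunit of the chromosomal passenger complex that corrects the attachment of chromosomes to the spindle. It stood at 5.77, 10.996 and 5.61 CPM in the vehicle libraries L3, L8 and L13 and at 3.49, 2.28 and 3.12 CPM in the PaPE-1 libraries L5, L6 and L16. The groups did not overlap, and L8 was far above the other libraries. Its log2 fold change was -1.31 (SE 0.28), with an unadjusted p of 0.000338 in edgeR, the smallest of the list, and -0.93 without L8. Nuf2, a subunit of the NDC80 kinetochore complex, had 1.36, 3.67 and 2.78 CPM with vehicle and 0.872, 0.683 and 0.808 CPM with PaPE-1, in the same library order. Its PaPE-1 libraries were all below 1 CPM, and the log2 fold change was -1.69 (SE 0.39). 

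The kinase Plk1, which drives entry into mitosis and the assembly of the spindle, had 2.46, 4.89 and 3.07 CPM in vehicle livers and 1.61, 1.06 and 1.67 CPM in PaPE-1 livers. The groups did not overlap and the log2 fold change was -1.23 (SE 0.32), or -0.92 without L8. Cdc20, the activator of the anaphase-promoting complex, had 6.36, 16.5 and 9.101 CPM and 3.49, 2.88 and 5.83 CPM in the same order of libraries, without overlap, and a log2 fold change of -1.36 (SE 0.34). The lowest vehicle library (L3) and the highest PaPE-1 library (L16) lay close together in Cdc20. Kif20a, a kinesin of the central spindle, stood at 4.99, 12.7 and 9.04 CPM with vehicle and 3.49, 1.97 and 4.61 CPM with PaPE-1, again with L16 closest to L3, and differed by -1.38 (SE 0.34). Ect2, the exchange factor that starts the cleavage furrow, had 5.38, 7.42 and 5.02 CPM and 1.95, 2.28 and 3.81 CPM, and its log2 fold change of -1.12 (SE 0.29) was -0.94 without L8.

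The other genes of the 12 named as lower by the rule were alike. Ckap2l, Cdkn3, Pbk and Spag5 differed by -1.38 (SE 0.37), -1.36 (SE 0.38), -1.34 (SE 0.36) and -1.34 (SE 0.38). Spag5 is a spindle protein and Cdkn3 a phosphatase of cyclin-dependent kinases. Ube2t, the ubiquitin-conjugating enzyme of the Fanconi anaemia pathway, had the largest difference of the 12, at -2.003 (SE 0.52), from levels of 1.36, 1.22 and 0.709 CPM and 0.134, 0.379 and 0.288 CPM. Its values come from 2 to 21 counts, and L3 was its highest library. Cip2a, an inhibitor of the phosphatase PP2A, differed by -1.26 (SE 0.35). In all 12 the 3 PaPE-1 libraries were below the 3 vehicle libraries, as in 42 of the 63 lower genes and 2.9% of all genes. Each kept a log2 fold change between -2.28 and -0.91 with any 1 of the 9 ob/ob libraries left out. The rule picked these genes for a small p and a large fold in the same libraries. It thus favours both traits, which are no separate support.

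**Figure D2:**
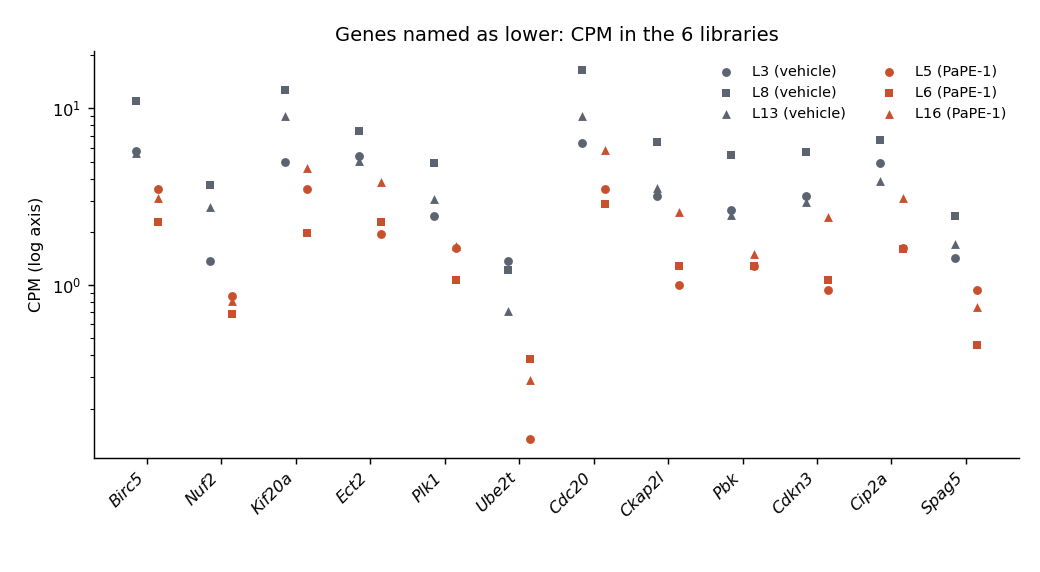
CPM (y axis, log scale) of the 12 genes named as lower, with 1 symbol for each of the 6 libraries, vehicle in grey and PaPE-1 in orange. The PaPE-1 symbols lie below the vehicle symbols in every gene, which the rule that picked these genes favours. L8 (grey square) is the highest in all but Ube2t.

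The best known proliferation markers lay in the same direction. Mki67, the Ki-67 antigen of cycling cells, stood at 10.2, 19.2 and 12.2 CPM in the vehicle libraries L3, L8 and L13 and 6.64, 5.23 and 10.8 CPM in the PaPE-1 libraries L5, L6 and L16, so that L16 fell within the vehicle range. Its log2 fold change was -0.86 (SE 0.27), with an unadjusted p of 0.00781 in edgeR. Top2a, the topoisomerase that untangles chromosomes, had 7.85, 10.996 and 5.56 CPM and 3.89, 3.56 and 5.13 CPM without overlap and differed by -0.93 (SE 0.24). The mitotic cyclins Ccnb1 and Ccnb2 and the S and G2 phase cyclin Ccna2 differed by -1.24 (SE 0.41), -1.06 (SE 0.44) and -1.04 (SE 0.31), and the kinase they switch on, Cdk1, by -0.87 (SE 0.34). In Ccnb1, Ccnb2 and Cdk1 the groups overlapped. Without L8 the values of Mki67, Ccna2 and Cdk1 were -0.56, -0.54 and -0.41, and without L16 those of Ccnb1 and Ccnb2 were -1.87 and -1.82. Kif18b, Fam83d and Pttg1 were the 3 members with a log2 fold change above 0, none passed an unadjusted p of 0.05, and each was below 0 with some 1 library left out.

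Library by library, L8 was the highest of the 6 in 60 of the 66 mitosis genes, and L6 was the lowest in 38 and L5 in 20. Relative to the vehicle mean, the mean log2 CPM of the 66 genes was -0.31 in L3, 0.50 in L8 and -0.19 in L13, and it was -0.85 in L5, -1.05 in L6 and -0.41 in L16. L16 was thus near L3 and L13, and L5 and L6 lay below all vehicle libraries. L5 was below all 3 vehicle libraries in 50 of the 66 genes, L6 in 55 and L16 in 26. For these counts by library no share over all genes is given, so they only describe the list. Without L8 the median of the list was -0.51, 60 of 66 were below 0 and 16 were lower at an unadjusted p under 0.05 in edgeR, beside 1.63% of all genes in that fit. Without L6 22 of 67 were lower, beside 1.23%, and without L5 26 of 67, beside 1.44%. Without L16 the median was -1.07 and 45 of 67 were lower, beside 2.85% of all genes. L8 also had the fewest counts, and the part of depth in its values was not tested.

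**Figure D3:**
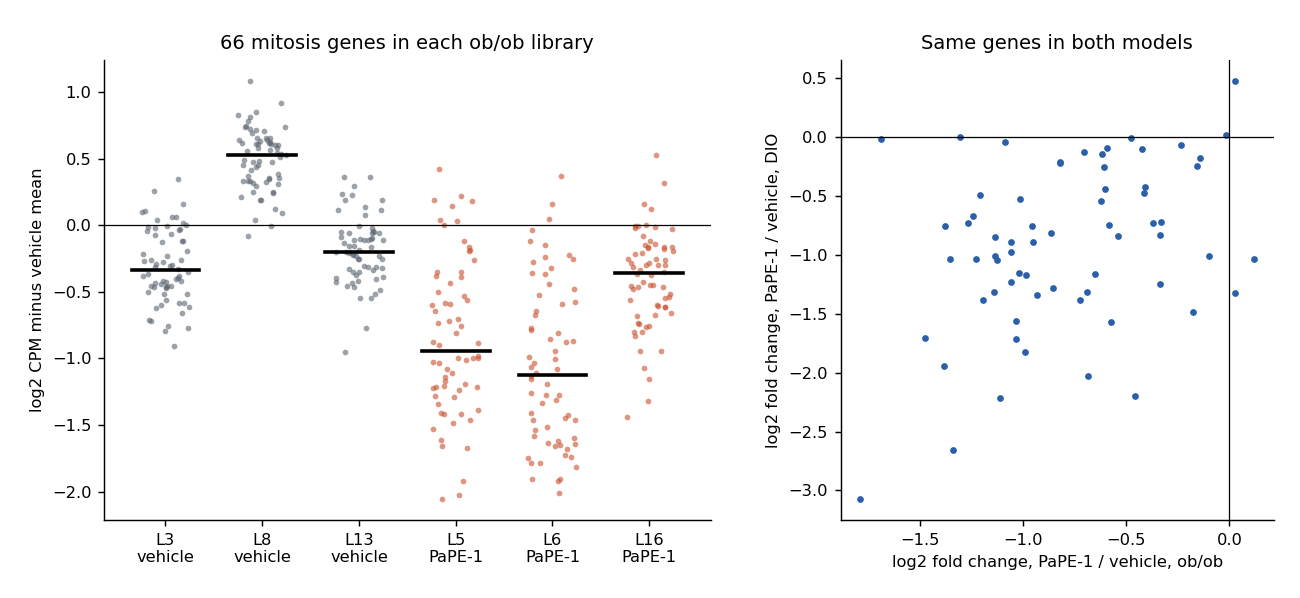
Left, log2 CPM of 66 mitosis genes minus their vehicle mean in each of the 6 libraries, with a bar at the median; L8 lies above and L5 and L6 below the others, and L16 overlaps L3 and L13. Right, log2 fold changes of the same genes for PaPE-1 over vehicle in ob/ob (x axis) and DIO liver (y axis), with 63 of 66 below 0 in each model.

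The DIO livers, which are other mice, other libraries and other vehicle controls, were used to see where ob/ob liver differed. The same 66 genes had a median log2 fold change of -0.87 with PaPE-1 in DIO liver, 63 were below 0 and 26 were lower at an unadjusted p under 0.05, beside 10.5% of all genes in the fit of 18 libraries. The difference between the models was tested as an interaction, and 0 of 14171 genes passed an adjusted p of 0.05 in edgeR, while 1719 passed an unadjusted p of 0.05 (12.1%). Of the 66 mitosis genes 5 did so. Birc5 was 1 of them, at -1.31 (SE 0.28) in ob/ob liver and 0.001 (SE 0.31) in DIO liver, with an unadjusted interaction p of 0.01597 in edgeR. Nuf2 was likewise -1.69 (SE 0.39) against -0.01 (SE 0.54). Plk1 and Ect2 stood at -1.03 (SE 0.58) and -1.04 (SE 0.44) in DIO liver, close to their ob/ob values.

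E2 was given at a dose different from that of PaPE-1 and is set against the same vehicle libraries, so its values are only placed beside those of PaPE-1. The median of the mitosis list was -0.84 with PaPE-1 (300 µg per kg daily) and -0.996 with E2 (5 µg per kg daily). Birc5 had -1.17 (SE 0.28) with E2, Plk1 -1.03 (SE 0.31) and Mki67 -1.16 (SE 0.27).

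Genes of DNA replication and nucleotide supply lay below 0 in smaller steps. Of 48 tested 45 had a log2 fold change below 0, beside 50.3% of all genes, and 7 were lower at an unadjusted p under 0.05 in edgeR, beside 1.65%, with a median of -0.33. Rrm2, the inducible subunit of ribonucleotide reductase, had 15.2, 40.9 and 20.2 CPM with vehicle and 10.6, 10.1 and 22.7 CPM with PaPE-1, where L16 exceeded 2 of the 3 vehicle libraries, and did not pass (log2 fold change -0.79, SE 0.43). The count of 7 became 2 without L8 and 2 without L6, beside 1.63% and 1.23% of all genes in those fits, and 14 without L16 and 23 without L13, beside 2.85% and 2.33%. The 20 tested genes of cell cycle brakes and p53 targets had a median of 0.13, and 0 of them passed an unadjusted p of 0.05 in either direction. Without L3 2 were higher and without L6 2, beside 1.82% and 1.07% of all genes in those fits.

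Erythroid genes held the most higher calls of any list, and they were high in 2 of the 3 PaPE-1 livers. Of 15 on the list 10 were tested, 6 were higher at an unadjusted p under 0.05 in edgeR, beside 0.998% of all genes, and the median log2 fold change was 1.15. The count of 6 was 0 when the PaPE-1 and vehicle libraries were fitted without the E2 libraries, and 1 with limma voom. The β-globin gene Hbb-bs had 267, 242 and 133 CPM in the vehicle libraries L3, L8 and L13 and 1586, 1251 and 189.7 CPM in the PaPE-1 libraries L5, L6 and L16. L5 and L6 were several times above every vehicle library and L16 lay inside the vehicle range. The log2 fold change of Hbb-bs was 2.24 (SE 0.74), or 2.73 without L16. The second β-globin gene Hbb-bt and the α-globin genes Hba-a1 and Hba-a2 were likewise highest in L5 and L6. Their log2 fold changes were 2.20 (SE 0.77), 1.87 (SE 0.64) and 1.73 (SE 0.65). These pairs are near-identical copies whose reads counting may divide wrongly, so they count as uncertain one by one.

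Slc4a1, the anion exchanger of the red cell membrane, stood at 0.195, 0.175 and 0.118 CPM with vehicle and 13.95, 3.41 and 0.231 CPM with PaPE-1. The vehicle values come from 3, 2 and 2 counts and the PaPE-1 values from 208, 45 and 4 counts, so the fitted log2 fold change of 5.12 (SE 1.58) depends on very few reads. Alas2, which starts heme synthesis in red cell precursors, had 47.99, 34.8 and 31.1 CPM and 71.1, 60.97 and 37.5 CPM, with a log2 fold change of 0.57 (SE 0.22). Ahsp, the chaperone of α-globin, was not tested and had 1, 0 and 0 counts with vehicle and 97, 13 and 0 counts with PaPE-1. L5 was above all 3 vehicle libraries in 9 of the 10 tested erythroid genes, L6 in 8 and L16 in 1. Here too no share over all genes is given. Without L5 the log2 fold changes of Slc4a1, Hbb-bt, Hba-a1, Hba-a2 and Alas2 were 3.39, 1.46, 1.14, 0.94 and 0.37. The count of 6 became 1 without L5, beside 0.787% of all genes in that fit, and 3 without L6, beside 1.07%. It was 2 without L8 (1.41%) and 1 without L13 (0.985%), and 8 of 12 tested genes passed without L16 (3.04%).

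Hamp (chr7:30641793-30643454 on GRCm39) encodes hepcidin, the liver hormone that closes the iron exporter ferroportin and so keeps iron out of the blood. It had 778, 611 and 764 CPM in the vehicle libraries L3, L8 and L13 and 120.0, 105 and 791 CPM in the PaPE-1 libraries L5, L6 and L16. L5 and L6 were far below all vehicle livers and L16 was above them, so the groups overlapped. With all libraries the log2 fold change was -1.08 (SE 0.78) and did not pass. Without L16 it was -2.67, with an adjusted p of 1.56e-05 in edgeR. In the E2 livers Hamp lay between 1115 and 1403 CPM.

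Hamp is switched on by BMP signals through SMAD proteins, and 5 other genes known to answer BMP signals were chosen after their values were seen. Id1, an inhibitor of helix-loop-helix factors, had 16.7, 25.4 and 23.5 CPM with vehicle and 6.04, 7.43 and 33.2 CPM with PaPE-1, with L5 and L6 below and L16 above all vehicle libraries. Id3 had 73.4, 89.6 and 80.5 CPM and 39.1, 35.7 and 98.6 CPM in the same arrangement. Without L16 the log2 fold changes of Id1 and Id3 were -1.70 and -1.12, with adjusted p of 0.006104 and 0.00582 in edgeR, and with L16 they were -0.46 (SE 0.63) and -0.49 (SE 0.36). Id2 stood at 170.0, 169 and 166 CPM and 108, 86.6 and 161 CPM, without overlap, and differed by -0.50 (SE 0.19), or -0.31 without L6 and -0.79 without L16. The helix-loop-helix factor Atoh8 and the inhibitory SMAD Smad7 differed by -0.37 (SE 0.22) and -0.34 (SE 0.43), and both were lowest in L5 and L6. The log2 fold change of Smad7 without L6 was 0.01. Erythroid genes and hepcidin thus divided the PaPE-1 libraries in the same way, and what divides these 3 livers was not tested.

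**Figure D4:**
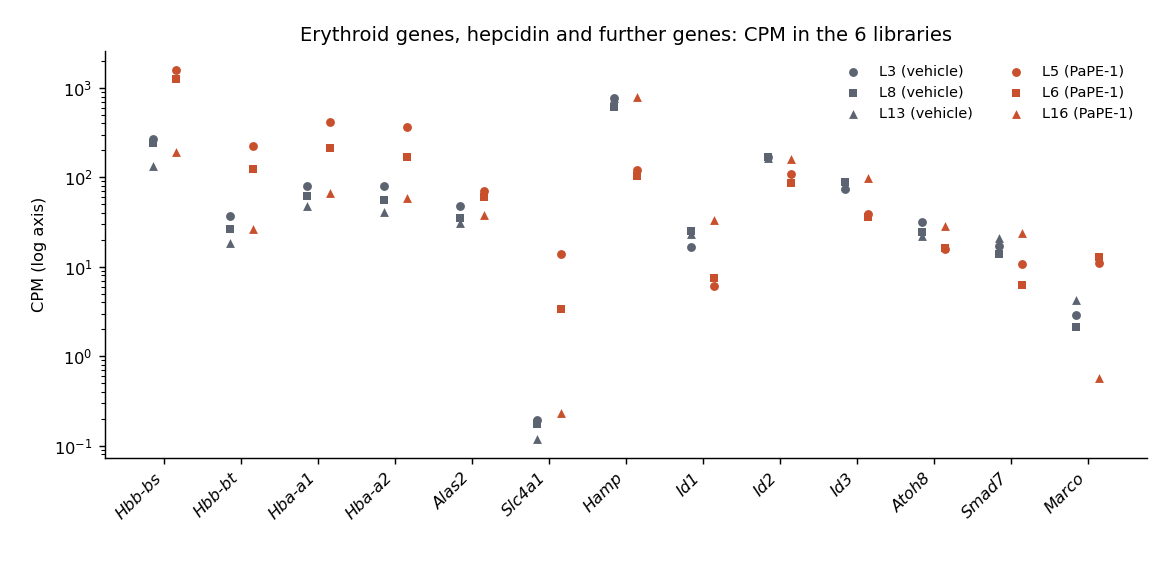
CPM (y axis, log scale) of erythroid genes, Hamp and further genes in the 6 libraries, vehicle in grey and PaPE-1 in orange. In the globin genes and Slc4a1 the PaPE-1 libraries L5 and L6 lie above all vehicle libraries, in Hamp and Id1 below them, and L16 lies near the vehicle libraries in these genes.

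Marco, a scavenger receptor of Kupffer cells, the resident macrophages of liver, followed the same division, at 2.92, 2.09 and 4.25 CPM and 11.001, 12.9 and 0.577 CPM. It passed an adjusted p of 0.0242 in edgeR without L16, where the log2 fold change was 1.92, and did not pass with all libraries (1.35, SE 0.88). The 16 Kupffer cell genes as a list had a median of -0.01, and 0 of them passed an unadjusted p of 0.05. Without L16 the median was 0.23 and 2 were higher, beside 3.04% of all genes in that fit. Clec4f, which defines these cells, stood at 83.99, 51.4 and 83.1 CPM and 75.7, 82.96 and 56.5 CPM. The summed level of the list was 722, 618 and 812 CPM in L3, L8 and L13 and 853, 754 and 575 CPM in L5, L6 and L16. Neutrophil genes lay higher on average in L5 than in the other 5 libraries. Of 15 tested 11 had a log2 fold change above 0, the median was 1.18, and 0 passed an unadjusted p of 0.05 in edgeR. Relative to the vehicle mean, their mean log2 CPM was 2.11 in L5, 0.12 in L6 and -0.74 in L16. Without L5 the median of the same 15 genes was -0.23, and without L16 5 of 17 tested were higher, beside 3.04% of all genes in that fit. S100a8, a subunit of calprotectin, had 1.23, 1.57 and 1.596 CPM and 15.8, 2.199 and 1.04 CPM. The summed level of the list was 78.2, 208 and 131 CPM with vehicle and 249.7, 92.8 and 117 CPM with PaPE-1.

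Further genes were named as higher by the rule. Tmem28 had 1.36, 2.27 and 1.005 CPM with vehicle and 3.22, 4.25 and 4.04 CPM with PaPE-1, without overlap, and a log2 fold change of 1.34 (SE 0.36). Adgb, which encodes androglobin, differed by 1.12 (SE 0.32), Pram1, a myeloid adaptor, by 1.29 (SE 0.42), and Nodal, a ligand of the TGF-β family, by 1.05 (SE 0.40). Wdfy1, an endosomal protein, stood at 5.19, 5.24 and 5.496 CPM and 7.65, 6.45 and 18.1 CPM. Here L16 was far above the rest, and without it the log2 fold change of 1.03 (SE 0.36) was 0.41. Pabpn1, which binds poly(A) tails in the nucleus, differed by 1.16 (SE 0.48) with overlapping groups.

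Genes of lipid-associated macrophages, macrophages that gather in fatty liver around lipid-laden cells, lay below 0 as a group. All 18 tested had a log2 fold change below 0, beside 50.3% of all genes, the median was -0.38, and 5 were lower at an unadjusted p under 0.05 in edgeR, beside 1.65%. Lpl, the lipase of triglyceride-rich lipoproteins, had 96.7, 96.7 and 102 CPM with vehicle and 73.7, 65.3 and 66.8 CPM with PaPE-1. The groups were well apart and each was tight, and the log2 fold change was -0.52 (SE 0.13), with -0.53 without L8. The proton pump subunit Atp6v0d2 differed by -0.51 (SE 0.20), the chemokine receptors Cx3cr1 and Ccr2 by -0.65 (SE 0.29) and -0.51 (SE 0.23), and the β-glucan receptor Clec7a by -0.29 (SE 0.13). Each of these 5 had groups that did not overlap, as had 2.9% of all genes in this direction. Cx3cr1 and Ccr2 stood at -0.36 and -0.27 without L8, and Atp6v0d2 at -0.25 without L13. Spp1, osteopontin, had 205, 529 and 116 CPM and 142, 113 and 114 CPM and did not pass (-1.20, SE 0.51), and Lgals3, galectin-3, had 27.7, 139.6 and 40.4 CPM and 44.1, 23.3 and 42.2 CPM. In both L8 was far above all others, and without L8 the log2 fold changes were -0.39 and 0.10. Of the 18 genes 14 were below 0 without L8. The count of 5 was 3 without L8, 2 without L6 and 1 without L16, beside 1.63%, 1.23% and 2.85% of all genes in those fits.

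L8 was also high in genes of cholangiocytes, the cells of the bile ducts. All 10 tested were below 0 with PaPE-1, with a median log2 fold change of -0.54, and 6 of 10 were below 0 without L8, with a median of -0.15. Relative to the vehicle mean, their mean log2 CPM was 0.54 in L8, -0.14 in L3 and -0.40 in L13. With PaPE-1 it was -0.39 in L5, -0.44 in L6 and -0.57 in L16. The adhesion molecule Epcam had 3.63, 8.12 and 2.72 CPM and 2.55, 2.96 and 2.77 CPM, and its log2 fold change of -0.77 (SE 0.34) was -0.20 without L8. The keratin Krt23 had 1.297, 1.396 and 3.37 CPM and 0.805, 0.834 and 0.808 CPM, where L13 and not L8 was the high library, and differed by -1.33 (SE 0.41), or -0.71 without L13. Epcam and Krt23 were the 2 of the list that passed an unadjusted p of 0.05, beside 1.65% of all genes lower. Of collagens and matrix genes 43 were tested, 37 were below 0, beside 50.3% of all genes, and the median was -0.23. At an unadjusted p under 0.05 in edgeR 2 were lower, beside 1.65% of all genes, and 1 was higher. Without L8 27 were below 0 with a median of -0.10 and 0 were lower, whereas without L13 39 were below 0 with a median of -0.34 and 13 were lower, beside 2.33% of all genes in that fit. Col5a1, a chain of collagen V, differed by -0.42 (SE 0.16), or -0.26 without L8, and Timp2, an inhibitor of matrix proteases, by -0.34 (SE 0.16). Col5a3, another collagen V chain, was higher, at 23.2, 24.7 and 21.3 CPM with vehicle and 35.6, 29.8 and 30.3 CPM with PaPE-1, without overlap and with a log2 fold change of 0.47 (SE 0.18). In DIO liver its value was -1.31 (SE 0.29), and the unadjusted interaction p was 0.000451 in edgeR. The adjusted interaction p was 0.1904. Col4a1, a chain of the basement membrane, stood at -0.21 (SE 0.12) in ob/ob and -0.90 (SE 0.15) in DIO liver.

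Among the genes of glutathione use, Gsta1 and Gsta4, transferases that join glutathione to reactive lipids and drugs, were lower. Gsta1 had 11.5, 18.9 and 21.4 CPM in the vehicle libraries L3, L8 and L13 and 8.72, 6.83 and 10.8 CPM in the PaPE-1 libraries L5, L6 and L16. All PaPE-1 libraries were below all vehicle libraries, and the log2 fold change was -0.97 (SE 0.25), with an unadjusted p of 0.00201 in edgeR. Gsta4 had 73.7, 86.6 and 96.6 CPM and 64.9, 69.01 and 63.1 CPM, again without overlap, and differed by -0.38 (SE 0.12). The 40 genes of the list had a median of -0.06 and 0 of them were higher at an unadjusted p under 0.05, against 2 lower, which became 6 without L8 and 4 without L3, beside 1.63% and 1.92% of all genes lower in those fits. The pseudogene Gstp-ps, chosen after its values were seen, had 29.9, 33.5 and 31.3 CPM and 20.9, 18.7 and 20.9 CPM, the smallest unadjusted p of all 13433 genes (8.89e-05 in edgeR) and a log2 fold change of -0.64 (SE 0.12). It shares sequence with the Gstp genes, and Gsta1 with its close copies, so their reads are uncertain. Gclc, which limits glutathione synthesis, and Gsr, which recycles glutathione, had -0.10 (SE 0.15) and -0.12 (SE 0.12).

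Lipid genes gave no calls with all libraries, but gave some with single libraries left out, the most of them without L3. Fasn, fatty acid synthase, had 2655, 1396 and 1381 CPM with vehicle and 1540.3, 2358 and 2469 CPM with PaPE-1, with L3 above all PaPE-1 livers. Its log2 fold change was 0.23 (SE 0.25), and that of Srebf1, the factor that drives lipogenesis, was 0.21 (SE 0.17). The 20 lipogenesis genes had a median of 0.18 and the 27 genes of triglyceride synthesis and lipid droplets 0.10. Cholesterol synthesis (24 genes) had -0.07, and fatty acid oxidation and ketogenesis (32 genes) 0.05. In all 4 lists 0 genes passed an unadjusted p of 0.05 in edgeR, beside 0.998% of all genes higher and 1.65% lower. Without L3, however, 9 of the 24 cholesterol synthesis genes were higher and 0 were below 0, with a median of 0.38, and 5 of the 20 lipogenesis genes were higher, with a median of 0.35, beside 1.82% of all genes in that fit. Without L13 the cholesterol synthesis genes had a median of -0.28, with 2 lower, beside 2.33% of all genes in that fit. Calls in other fits were few and went both ways. Lipogenesis had 1 higher gene without L5 and 1 lower without L16, beside 0.787% and 2.85% of all genes. Fatty acid oxidation and ketogenesis had 2 higher without L13 and 1 lower without L8, beside 0.985% and 1.63%. Respiratory chain complex I (36 genes), complexes II to V (41) and cytosolic ribosomal proteins (75) had medians of 0.01, 0.00 and 0.02 with 0 passing, and hepatocyte markers (24) -0.07 with 0 passing. Without L16 6 of the 75 ribosomal protein genes were higher, beside 3.04% of all genes. In DIO liver the medians of complex I, complexes II to V, ribosomal proteins and hepatocyte markers were 0.48, 0.47, 0.80 and 0.34, and 19, 20, 75 and 8 of their genes had an unadjusted interaction p under 0.05, beside 12.1% of all genes. Of 33 genes that the study names and that could be tested, 1 was higher (Col5a3) and 1 lower (Gsta1), beside 0.998% and 1.65% of all genes.

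Esr1, the gene of estrogen receptor α, stood at 17.8, 10.4 and 10.6 CPM with vehicle and 11.2, 16.9 and 12.7 CPM with PaPE-1, a log2 fold change of 0.07 (SE 0.22) that was below 0 without L6, L8 or L13. Esr2 had 0 counts in the 9 ob/ob libraries and Gper1 had 3. Of 22 estrogen receptors and estrogen-responsive genes tested 1 passed, Ddc, which makes dopamine and serotonin, at 0.29 (SE 0.13), or 0.46 without L8. That 1 higher call stood beside 0.998% of all genes. Among 33 genes with a female bias in liver, Cyp17a1, a steroid hydroxylase, had 88.3, 133 and 123 CPM with vehicle and 152, 292 and 236 CPM with PaPE-1, without overlap, and a log2 fold change of 0.99 (SE 0.26). The repressor Cux2 had 1.103, 1.48 and 3.43 CPM and 5.84, 5.23 and 2.19 CPM, where L16 lay between L8 and L13, and differed by 1.08 (SE 0.44), or 1.77 without L13. With E2 at 5 µg per kg per day the values were 1.05 (SE 0.26) for Cyp17a1 and 2.84 (SE 0.41) for Cux2. The female-biased list as a whole had a median of 0.04 with PaPE-1, and 16 of 33 genes were below 0. At an unadjusted p under 0.05 in edgeR 2 were higher and 1 lower, beside 0.998% and 1.65% of all genes. The lower gene was Atp6v0d2, which the list shares with the macrophage list.

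Of the immediate early genes, which answer growth signals within minutes, Fos had 3.05, 2.88 and 2.896 CPM with vehicle and 1.61, 1.74 and 1.33 CPM with PaPE-1. Both groups were tight and apart, and the log2 fold change was -0.92 (SE 0.25), or -0.93 without L8. Fosb stood at -1.18 (SE 0.53) and Egr1 at 0.37 (SE 0.13), in opposite directions, and Fosb moved to -2.29 without L5 and -0.77 without L16. The 23 genes had a median of -0.01. The insulin receptor substrate Irs1 (-0.32, SE 0.12) and the growth factor Hgf (-0.46, SE 0.18) were lower without overlap, as were 2.9% of all genes. The lymphatic and sinusoidal receptor Lyve1 (-0.44, SE 0.19) and the interleukin-1 antagonist Il1rn (-0.42, SE 0.19) were likewise lower without overlap. As lists, glucose metabolism and insulin signalling (26 tested) and stellate cell markers (18) had 1 lower gene each, beside 1.65% of all genes. Liver endothelial markers (20) and acute phase proteins (25) also had 1 each. The medians were 0.09, -0.06, -0.10 and 0.02 in that order. Fgl1, a protein secreted by hepatocytes, was higher (0.50, SE 0.22), with L16 inside the vehicle range. Without L13 Fgl1 stood at 0.33, and without L6 Hgf at -0.25. Of 30 interferon response genes the chemokine Cxcl10 (-0.83, SE 0.29) and the GTPase Gbp2 (-0.63, SE 0.26) were lower and the antiviral Rsad2 higher (0.43, SE 0.20). Gbp2 stood at -0.21 without L3 and Rsad2 at 0.16 without L5. With all libraries the list had a median of -0.11, and its 2 lower and 1 higher genes stood beside 1.65% and 0.998% of all genes. The median ranged from -0.21 to 0.07 with a library left out. Of the list 0 were lower without L3 and 6 without L13, beside 1.92% and 2.33% of all genes in those fits.

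**Figure D5:**
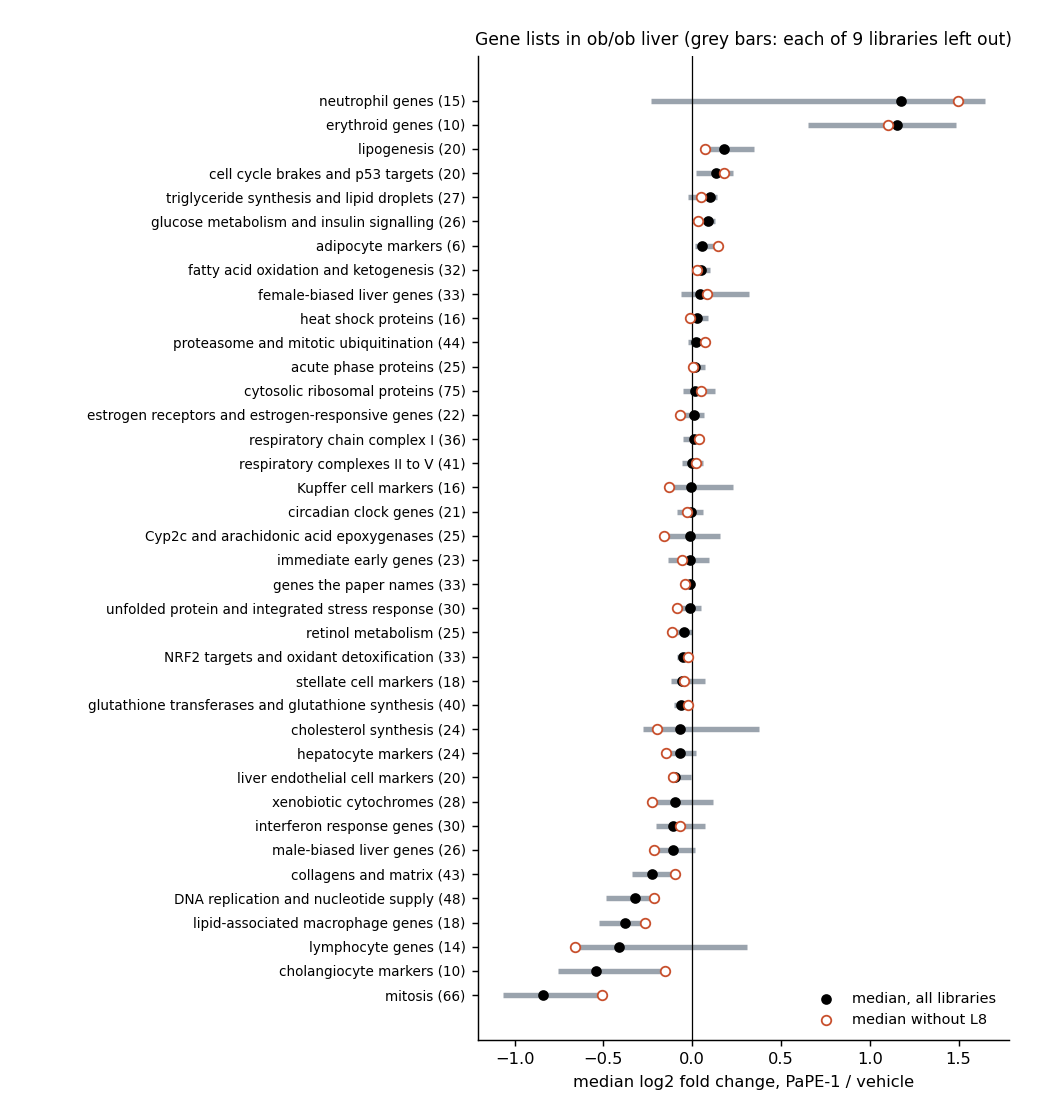
Median log2 fold change of PaPE-1 over vehicle for each gene list with at least 6 genes tested (number in brackets), as black points, with open circles for the median without L8 and grey bars for the range over the 9 fits that each leave out 1 ob/ob library. The mitosis list lies lowest at -0.84, the bars of the neutrophil and lymphocyte lists cross 0, and most lists lie near 0.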

How the data were processed

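Liver RNA of 18 libraries was sequenced, 3 per treatment in each of 2 obese models, and the 9 ob/ob libraries were used, with the 9 DIO libraries for the interaction only. Raw read counts per gene were deposited by the authors for 40840 genes. Per the submitters' processing notes and the file headers, reads were processed with CASAVA 1.8.2, aligned with STAR 2.7.6a and counted by strand (option 2) with featureCounts 2.0.0 on RefSeq genes of GRCm39. The authors' methods name other tools for the same step. Tables of the authors' own DESeq2 comparisons hold fold changes and p-values and were not used.

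In R 4.3.3, genes were kept by edgeR 4.0.16 (filterByExpr), scaled by TMM and tested by its robust quasi-likelihood test over the 9 libraries with 1 mean per treatment; adjusted p are Benjamini-Hochberg values. Counting error falls with depth, so genes near 1 CPM rest on 10 to 17 reads per library. An exact permutation test of 3 against 3 cannot go below p = 0.1 and was not used. P-values set the difference between PaPE-1 and vehicle against the spread between libraries of the same treatment, an estimate that borrows from other genes and from the E2 libraries. Each library is taken as 1 liver.

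Named genes were the 12 with the smallest p in each direction among those over 2-fold at an unadjusted p under 0.05 with at least 1 CPM on average in either group and no bare identifier, the genes the study names, up to 6 genes per list by smallest p and the highest markers of cell types. Genes chosen otherwise are said to be, and some genes are not reported here. The members and gene lists were chosen with earlier results of these data known. Alternatives were DESeq2 1.42.0 (size factors, Wald test), limma 3.58.1 (voom), other filters, the 6 libraries alone, no robust option and each ob/ob library left out. On simulated counts of this comparison (13290 genes), 82 of 100 genes changed 2-fold and 98 of 100 changed 4-fold were called, with 10 false calls. The changed genes were drawn only from those with higher mean counts, and no simulated library was made to stand apart as L8 and L16 did. These rates therefore do not cover genes near 1 CPM or libraries that stand apart.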

Additional observations from a re-analysis of the deposited data

How the results depend on the processing

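The count of genes at an adjusted p of 0.05 was 0 in edgeR, 2 with DESeq2's Wald test (Gstp-ps among them), 1 with no filter on low counts (Birc5), 0 with limma voom and from 0 to 6 with 1 ob/ob library left out. Higher genes over 2-fold at an unadjusted p of 0.05 numbered 11 in the 6 libraries alone, 9 with at least 10 counts in every library and 124 with no filter, and from 22 to 70 with a library left out. Lower genes numbered 22 with at least 10 counts in every library and 156 with no filter, and from 48 to 123 with a library left out. Fewer or more genes tested go with the changes under the other filters; the cause of the others was not tested. Mitosis genes lower at an unadjusted p of 0.05 numbered from 16 to 45 with a library left out. Erythroid genes higher numbered 0 in the 6 libraries alone, 1 with limma voom, 11 with no filter and from 1 to 8 with a library left out. The interaction gave 0 genes at an adjusted p of 0.05 in edgeR, with limma voom and without L8. With a library left out the log2 fold change ranged from -1.02 to 0.0074 for Smad7, from -1.29 to 0.105 for Lgals3 and from -0.204 to 0.031 for Gclc, above 0 without L6, L8 and L6 in that order, and from -0.11 to 0.37 for Esr1. The mitosis genes with small values above 0 ranged from -0.0761 to 0.422 for Kif18b, from -0.408 to 0.399 for Fam83d, which stood at -0.153 with limma voom, and from -0.0983 to 0.157 for Pttg1. The other 81 genes recomputed kept their sign under every alternative that tested them. No paired analysis was possible because the labels give the libraries no replicate numbers that groups share.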
